A study of Mus musculus with 60 samples.

Results

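In Lnc956 knockout mouse embryonic stem cells treated with etoposide, 1745 KLF4 binding sites met a rule of gain: a KLF4 ChIP-seq peak of the first treated library, off the mitochondrial chromosome, that overlapped a peak of the second treated library by at least 1 bp and no peak in any of 4 untreated lists, the 2 of the untreated knockout and the 2 of untreated wild-type (WT) cells. They were 8.89% of the 19623 treated knockout sites seen in both treated libraries, and 7.81% of the 22346 peaks of the first treated library. The sites were chosen by the peak calls of these 6 libraries, so presence or absence there, and every fold enrichment in the treated knockout, is given as a description without a test. Of the other treated sites, 1628 overlapped a peak in 1 untreated list, 4689 in 2 or 3, and 11561 in all 4; the last are called kept sites.

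The series compared WT and Lnc956-deficient ES cells, kept in serum replacement and leukaemia inhibitory factor, before and during treatment with etoposide. KLF4 ChIP-seq (16 libraries, R&D antibody) covered WT cells, Lnc956 knockout cells, and knockout cells that overexpress either full-length Lnc956 or a form without nucleotides 862 to 1253, each untreated or after 3 h in 10 uM etoposide. P53 ChIP-seq (8 libraries, antibody to P53 phosphorylated at serine 15) covered WT and Lnc956 knockdown cells, untreated or in 10 uM etoposide for a time not given in the sources used here. RNA-seq came from Lnc956 knockdown cells without and with 10 uM etoposide, and from knockout cells at 0, 3 and 9 h, labelled 1 uM except that the second 3 h library is labelled 10 uM. For the filter and the spread, the RNA fits also used WT cells without and with 10 uM etoposide beside the knockdown. Beside the knockout they used knockout cells at 6 h, WT cells at 6 and 9 h, and P53 knockdown cells at 0, 3, 6 and 9 h. The treated libraries of these were labelled 1 uM, except the first 6 h libraries of knockout and P53 knockdown, labelled 10 uM. Every group had 2 libraries, and nothing in the labels says that these came from separate cultures or lines from separate clones, so p-values measure the spread between libraries, which may be technical. Lnc956 itself has no row under that name in the expression tables, so the loss of the RNA was not checked here.

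KLF4 is a zinc finger transcription factor that binds GC-rich and CACCC-type sequence at promoters and enhancers and, with Klf2, Klf5, Esrrb and Tfcp2l1, belongs to the circuit that keeps naive pluripotency. Etoposide traps type II topoisomerase on cut DNA, and the breaks lead to phosphorylation and stabilisation of P53, which in ES cells activates damage genes and lowers genes of self-renewal.

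Few of the sites lay in promoters. Their summits fell in 24 annotated promoter windows, each the 250 bases before a RefSeq start (GRCm38.p6, the assembly of mm10), of 21 genes. The KLF4 core motif, GGGNGTGG on either strand, was in 2 of the 24 windows (8.33%), against 28.5% of the 1976 windows with a kept summit and 15.9% of all 32851 windows. The windows below are those of the 2 genes with that motif, which is in capitals on whichever strand it lies, and 3 without it. Of these 3, Flnc is shown for its GC boxes and Top2a because it encodes a type II topoisomerase, the class that etoposide traps. Etv5, an ETS factor of ES cells, is shown because its site lay at the edge of the rule. The windows shown are, on the strand of each gene, chr6:108532910-108533159 (the lncRNA Gm44040, minus strand), chr19:42086371-42086620 (Morn4, minus), chr6:29432903-29433152 (Flnc, a filamin, plus), chr11:99024190-99024439 (Top2a, minus) and chr16:22438369-22438618 (Etv5, minus).
Gm44040: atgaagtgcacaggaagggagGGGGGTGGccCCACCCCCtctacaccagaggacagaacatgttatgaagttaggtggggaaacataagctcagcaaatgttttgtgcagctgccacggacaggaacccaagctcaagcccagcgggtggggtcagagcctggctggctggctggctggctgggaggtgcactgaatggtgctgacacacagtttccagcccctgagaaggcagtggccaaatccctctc
Morn4: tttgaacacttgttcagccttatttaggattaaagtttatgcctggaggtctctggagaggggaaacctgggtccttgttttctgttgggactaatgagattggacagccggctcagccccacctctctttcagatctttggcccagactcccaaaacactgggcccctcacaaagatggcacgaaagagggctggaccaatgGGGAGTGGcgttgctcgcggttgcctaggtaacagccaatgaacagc
Flnc: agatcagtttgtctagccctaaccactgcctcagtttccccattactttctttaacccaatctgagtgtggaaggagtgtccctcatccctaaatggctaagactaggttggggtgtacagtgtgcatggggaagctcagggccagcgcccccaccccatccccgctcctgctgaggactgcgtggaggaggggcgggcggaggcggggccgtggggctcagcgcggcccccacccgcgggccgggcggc
Top2a: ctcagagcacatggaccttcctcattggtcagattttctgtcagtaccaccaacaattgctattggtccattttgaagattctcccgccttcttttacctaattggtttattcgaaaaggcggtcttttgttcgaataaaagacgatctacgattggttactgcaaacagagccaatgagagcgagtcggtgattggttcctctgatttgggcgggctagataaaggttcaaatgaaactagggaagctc
Etv5: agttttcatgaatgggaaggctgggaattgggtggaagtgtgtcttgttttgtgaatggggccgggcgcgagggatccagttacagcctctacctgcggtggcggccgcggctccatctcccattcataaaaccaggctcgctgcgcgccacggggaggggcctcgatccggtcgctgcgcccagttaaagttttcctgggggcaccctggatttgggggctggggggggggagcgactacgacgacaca
The Gm44040 window held 2 copies of the motif, 1 on each strand, and the Morn4 window 1. The GC box, GGGCGG on either strand, was in 29.2% of the windows with a gained summit, Flnc and Top2a among them, in 79.7% of those with a kept summit and in 32.7% of all. The median window with a gained summit held 8.5 CpG, against 20 with a kept summit and 6 over all windows. In the GC box and CpG the 24 windows lay closer to promoters at large than to promoters with kept sites. With so few windows each is worth 4.17 percentage points of a share, and sequence away from promoters was not read here.

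The sites were weak. Their median fold enrichment over the control at the summit was 5.36 in the first treated library (quartiles 4.91 and 6.12) and 5.42 in the second, against 9.95 and 10.1 for kept sites. Median -log10 q was 4.91 and 5.03, against 13.6 and 13.9, and median width was 371 bp, against 941 bp. A -log10 q of 5 or more in both treated libraries was reached by 691 sites (39.6%) and by 89.4% of kept sites. For 48.0% of the sites, and for 53.8% of kept sites, the fold was a whole multiple, within 0.005 of a step, of 0.766. Of the 838 gained sites on a step, 733 stood at 6 to 9 steps, so that neighbouring sites often differed by a single step of the authors' peak height. Sites that overlapped 1 untreated list, or 2 or 3, lay between, with median folds of 6.07 and 6.43.

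**Figure D1:**
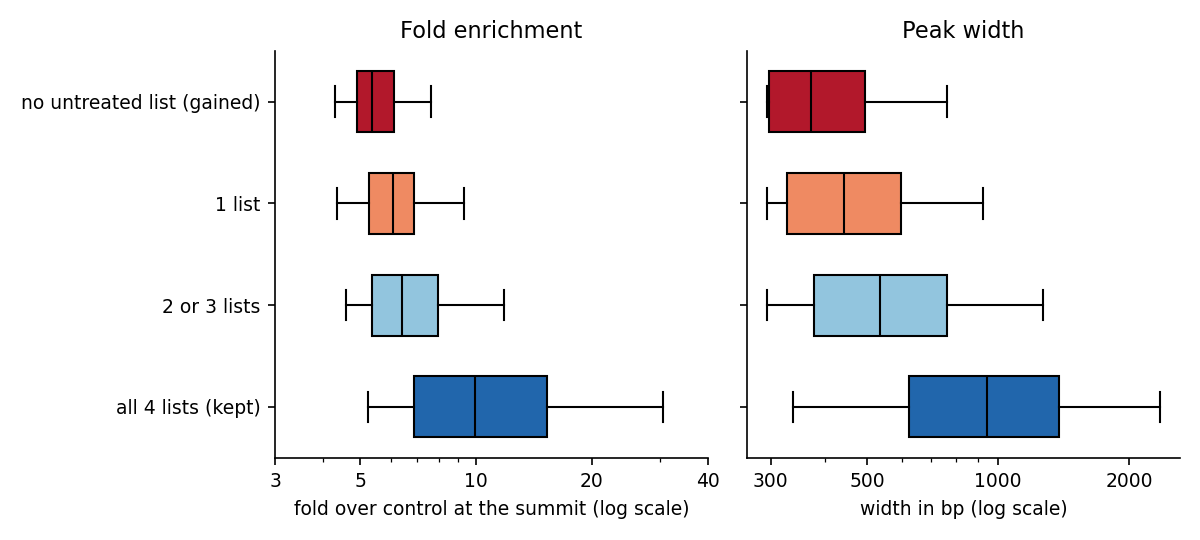
Fold enrichment at the summit (left, log scale) and peak width in bp (right, log scale) of treated knockout sites in the first treated library, by the number of untreated lists with an overlapping peak; line, median; box, quartiles; whiskers, the 5th and 95th percentiles. Gained sites had the lowest median fold, 5.36, and the lowest median width, 371 bp, and kept sites the highest, 9.95 and 941 bp.

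The edge of the rule was narrow. The sites with the fewest bases to an untreated peak were 0 to 4 bases from one: at Etv5 (fold 6.12 and 5.42 in the 2 treated libraries), in Etl4 (6.89 and 7.74), in Prdx6 (6.12 and 6.19) and at Morn4 (3.99 and 4.05), with 1 intergenic site on chromosome 16 (4.59 and 4.64). Sites just outside overlapped an untreated peak by 1 to 3 bases and had similar folds, 5.34 and 4.62 for the one nearest Pllp and 6.12 and 6.19 for the one nearest Nup98. An untreated peak lay within 1 kb of 609 of the gained sites (34.9%) and within 10 kb of 70.3%. This was not particular to them. Counting only untreated peaks that a site did not overlap, the shares were 34.7% and 69.8% for kept sites. For sites with a peak in 1 untreated list they were 38.9% and 71.7%. Of the 1628 sites with a peak in 1 untreated list, 1155 (70.9%) had it in the first untreated knockout library, which also held the most peaks of the 16 KLF4 lists, 32540. For 69 gained sites (3.95%) the overlapping peak of the second treated library was wide enough (median 1029 bp) to reach an untreated peak, and these include all 13 sites whose fold was more than 2 times higher in the second library than in the first. At Vgll4, a cofactor of TEAD factors, the folds were 7.50 and 58.8 and the second peak was 3914 bp wide; 6 of the 10 sites of highest mean fold were of this kind.

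Among the 4 strongest sites without such a reach, the top one lay at chr19:61331011-61331449, with folds of 32.9 and 37.1 and no gene within 10 kb. It also had KLF4 peaks in both untreated libraries of the full-length line (folds 65.5 and 63.8) and P53 peaks in 6 of the 8 P53 lists (58.7 to 77.0), the untreated WT lists included. The next, at chr9:12903667-12904164, had folds of 13.8 and 10.1 and no gene within 10 kb. The site in Ttc7b (chr12:100458197-100458837) had 11.5 and 10.8, and that near Fxyd4, an ion pump regulator (chr6:117946639-117947317), 10.6 and 11.0. All 4 also had KLF4 peaks in untreated libraries of the lines that carry Lnc956 transgenes.

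Gained sites lay away from gene starts. Of the 1700 with an annotation of starts on their chromosome (the 45 on chromosome 18 had none), 134 (7.88%) had a summit within 1 kb of a start, 866 (50.9%) lay in gene bodies and 700 (41.2%) between genes. Of 11307 kept sites, 53.3% lay at a start, 30.1% in gene bodies and 16.7% between genes. The median distance to the nearest start was 13.9 kb, against 0.537 kb. In place, the gained sites were close to those with a peak in 1 untreated list, of which 8.88% lay at a start.

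**Figure D2:**
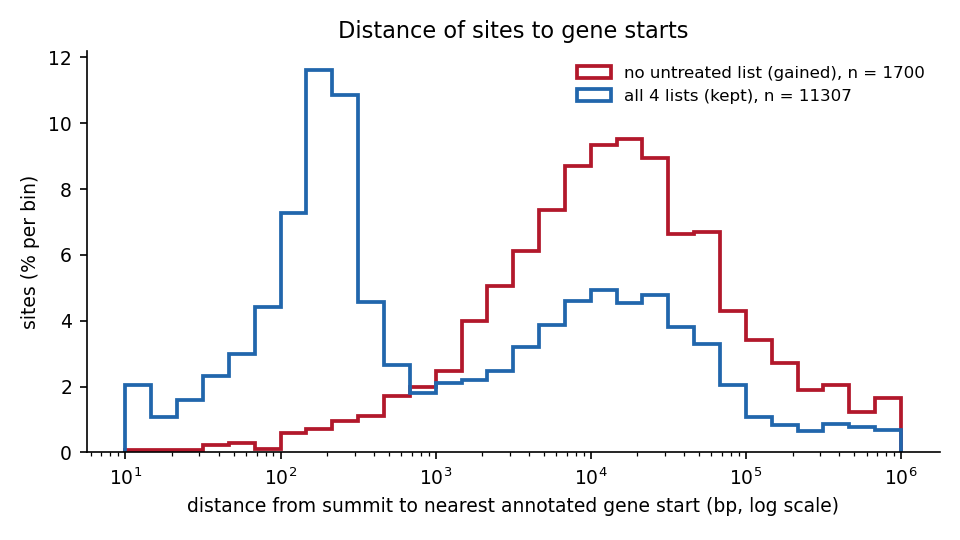
Share of sites, in percent per bin, by the distance in bp (log scale; under 10 bp drawn at 10) from summit to nearest annotated gene start, for gained and kept sites. Kept sites peak within 1 kb of a start, where 53.3% lay; gained sites peak beyond, with a median of 13.9 kb.

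The distribution over chromosomes was uneven. Chromosome 6 held 185 gained sites (10.6%), against 5.91% of kept sites, and chromosome Y held 23, which were 39.7% of all treated knockout sites there. Chromosome 6 was also unequal between the lists that the rule compares: it held 4.39% and 4.29% of the peaks of the untreated WT lists, 8.25% and 8.17% in the untreated knockout, 7.89% and 7.86% in the treated knockout, and 7.13% to 9.28% in the other 10 KLF4 lists, treated WT cells (9.28% and 9.12%) included. Without chromosomes 6 and Y, 1537 sites remained. With the untreated knockout lists alone, and no WT list, the rule gave 2646 sites.

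The lines that re-express Lnc956 were not used by the rule, and there the sites more often had a KLF4 peak without etoposide than with it. In the full-length line 31.4% and 33.4% of the sites overlapped a peak in the 2 untreated libraries, and 2.92% and 2.35% in the 2 treated ones. In the deletion line the shares were 48.3% and 48.5% untreated, and 18.1% and 18.9% treated. No treated library reached an untreated one, in either line or between lines. The mean of the 4 treated libraries was 10.5% and of the 4 untreated ones 40.4%, a difference of -29.9 percentage points (two-sided exact permutation test, p = 0.0286, the smallest that 4 against 4 libraries can give). The permutations did not keep libraries within their line, so this p takes no account of the line. Within a line the differences were -29.7 (full length) and -30.0 (deletion), and 2 against 2 libraries cannot give a p under 0.333.

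**Figure D3:**
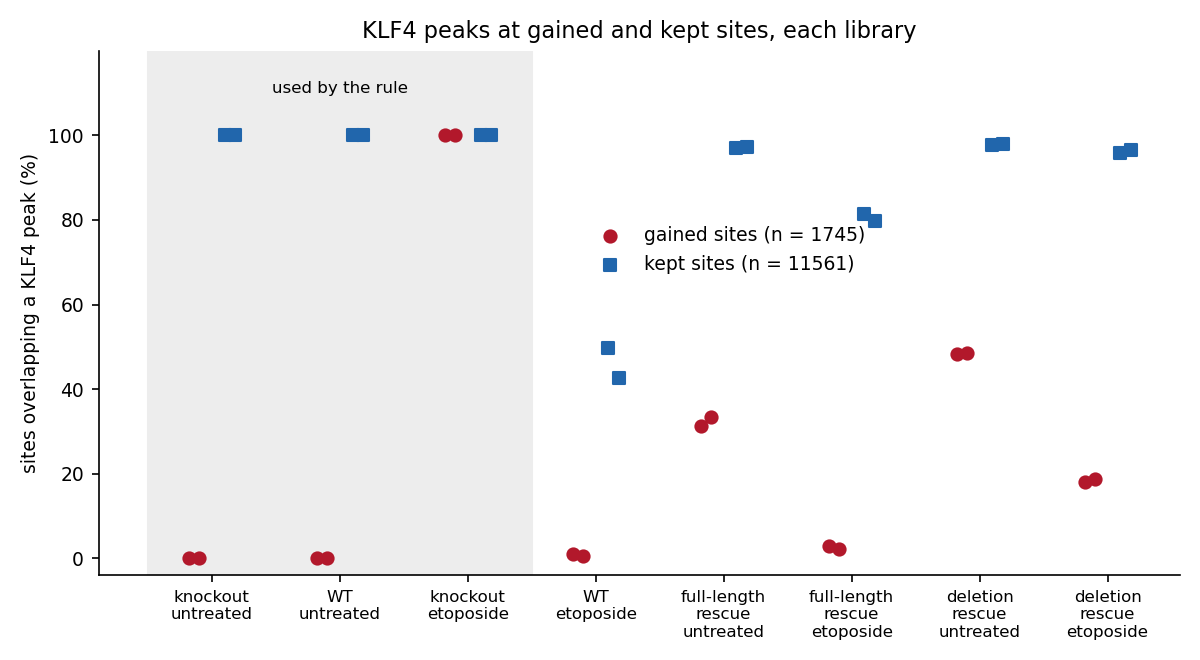
Percent of gained sites (circles, n = 1745) and kept sites (squares, n = 11561) that overlap a KLF4 peak, 1 point per library; shaded groups are those the rule used. In both rescue lines the gained sites are more often in untreated lists (31.4% to 48.5%) than in treated ones (2.35% to 18.9%).

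The lists also differed in length, which moved with these shares: 27683 to 28227 peaks in the 4 untreated rescue libraries, 24177 and 24838 in the treated deletion line, and 14575 and 13948 in the treated full-length line. With every list cut to its 13948 strongest peaks the shares fell to 7.62% and 8.71% (full length, untreated), 2.58% and 2.35% (full length, treated), 16.4% and 15.3% (deletion, untreated), and 4.36% and 4.18% (deletion, treated). The difference was then -8.65 points, with no overlap and the same p of 0.0286.

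Site by site, 741 gained sites (42.5%) had a peak in both untreated libraries of the deletion line and 206 (11.8%) in both treated ones, against 86.4% and 74.1% of all treated knockout sites. In that line 601 were in both untreated and not in both treated libraries, and 66 the other way round. In the full-length line 437 (25.0%) were in both untreated libraries and 14 (0.802%) in both treated ones, against 80.8% and 50.4% of all treated knockout sites. At least 1 rescue line had a peak in both of its untreated libraries at 888 sites (50.9%). Where a rescue library had a peak, its median fold at these sites was low, 6.02 and 6.22 in the untreated full-length line and 6.81 and 6.79 in the untreated deletion line, against 13.5 to 14.1 at kept sites.

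The 2 treated rescue lines differed from each other. The deletion line had a peak at 18.5% of the sites on average and the full-length line at 2.64%, a difference of 15.8 points, with no overlap between the libraries; the smallest p that 2 against 2 libraries allow is 0.333, which is the value obtained. With both lines cut to 13948 peaks the difference was 1.81 points, still with no overlap (4.36% and 4.18% against 2.58% and 2.35%). The untreated lines stood in the same order, 48.4% against 32.4% on average.

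In treated WT cells the sites were nearly absent from the lists: 19 of 1745 (1.09%) overlapped a peak of the first library, 9 (0.516%) one of the second, and 5 (0.287%) both, against 25.0% of all treated knockout sites in both. These 2 lists were the shortest of the 16, with 6942 and 5690 peaks, and kept sites were in them at 49.7% and 42.6%. Over the 6 treated libraries of WT and both rescue lines, gained sites were in a list at 7.30% on average and kept sites at 74.3%, a difference of -67.0 points, negative in 6 of 6 libraries. Gained sites were chosen for no peak in the 4 untreated lists and kept sites for a peak in all 4. That choice itself favours a gap in this direction, so the difference is a description and no p-value is given. Among sites in the same range of fold in the treated knockout (4.91 to 6.12), 884 gained sites were in the treated deletion lists at 15.3% and 17.4%, and 1586 kept sites at 84.4% and 88.6%. The choice by untreated lists holds for these sites too.

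A group of 558 sites (32.0%) had no peak in any of the 10 KLF4 lists that the rule did not use, against 4.58% of all treated knockout sites. In none of the other 6 treated lists were 1259 (72.1%), against 16.0% of all treated sites, and no gained site was in all 6. Stronger sites were more often in the untreated deletion lists: below a fold of 5 these held 35.1% and 36.8% of 462 sites, and from 8 upwards 82.0% and 83.6% of 61. In the treated WT lists no such rise was seen below a fold of 8. Those lists held 0.866% and 0.866% below 5, 0.508% and 0.338% from 6 to 8, and 11.5% and 3.28% from 8 upwards.

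P53 peaks were uncommon at the sites, and more frequent after etoposide. In WT cells 1.83% and 1.66% of the sites overlapped a P53 peak untreated and 3.67% and 4.30% treated. In knockdown cells the shares were 0.974% in both untreated libraries and 2.58% and 3.21% in the treated ones. The treated and untreated libraries did not overlap, with means of 3.44% and 1.36% and a difference of 2.08 points (two-sided exact permutation test over 8 libraries, p = 0.0286, the smallest possible). These permutations did not keep libraries within WT or knockdown, so the p takes no account of genotype. Kept sites were at 2.56% to 3.01% untreated and 19.7% to 23.6% treated, so in the 4 treated libraries gained sites were 18.9 points lower on average, lower in 4 of 4 libraries; an exact sign-flip permutation test gave the smallest p that 4 libraries allow, 1 in 8. The gap was smaller among sites with KLF4 folds of 4.91 to 6.12 in the treated knockout. There gained sites were at 2.49% to 3.96% and kept sites at 8.76% to 10.8% in the treated P53 lists. The treated lists held 5046 to 6527 peaks and the untreated ones 981 to 1377. With every list cut to its 981 strongest peaks the direction turned, to -0.244 points (exact permutation p = 0.200), with 0.802% to 0.917% of the gained sites in treated and 0.802% to 1.38% in untreated lists.

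**Figure D4:**
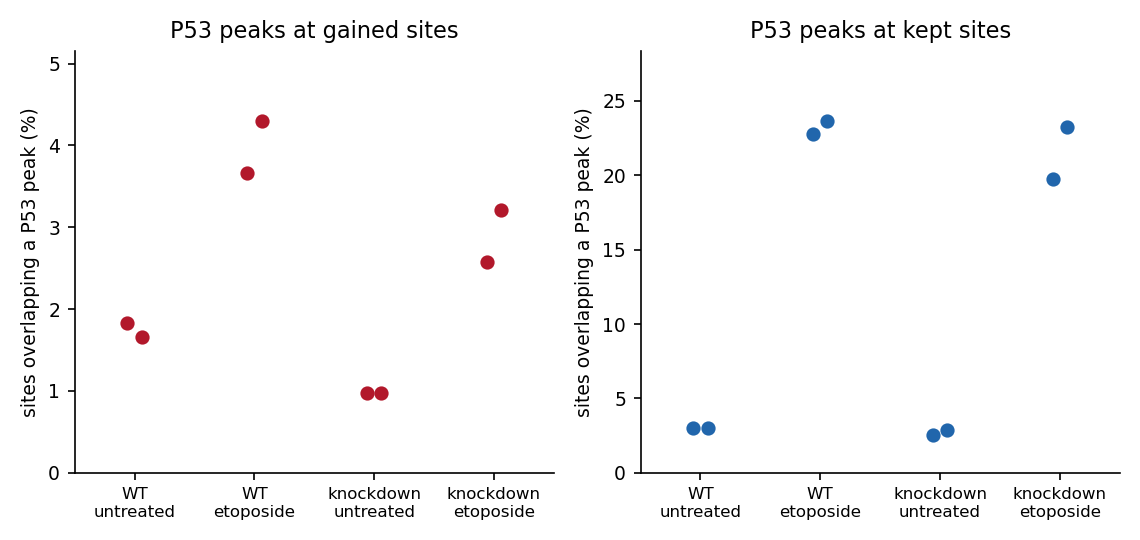
Percent of gained sites (left) and kept sites (right) that overlap a P53 peak, 1 point per library; the 2 vertical scales differ. Gained sites lie at 0.974% to 1.83% in untreated and 2.58% to 4.30% in treated lists, kept sites at 2.56% to 3.01% and 19.7% to 23.6%.

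All 4 treated P53 lists had a peak at 29 gained sites (1.66%), against 10.3% of all treated knockout sites. Of the 1745 sites, 13 (0.745%) were in all 4 treated and in no untreated P53 list, against 7.34% of all treated sites, and 10 had a P53 peak in all 8 lists. The 13 include a site in Palld, an actin-binding protein (chr8:61532059-61532407, KLF4 folds 6.89 and 6.96, P53 folds 5.30 to 6.98), one in Thada (chr17:84314645-84314960, 6.89 and 6.19, P53 6.26 to 7.52), and one in Rere, a corepressor (chr4:150515072-150515393, 6.89 and 6.19, P53 7.09 to 9.16). None of these 3 was in another KLF4 list. The site of the 13 that lay near a pluripotency gene was 17.2 kb from the start of Zfp42 (Rex1), a marker of naive ES cells, at chr8:43289617-43290026, with KLF4 folds of 6.12 and 5.42 and P53 folds of 5.01 to 6.26.

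Within 10 kb of a gained site lay 10 of 20 listed genes of naive pluripotency: Esrrb, Zfp42, Klf2, Tfcp2l1, Tbx3, Nr0b1, Dppa5a, Prdm14, Fgf4 and Tet2. So did 6.86% of all protein-coding genes, expressed or not, and 1341 of the 14103 genes tested in the knockout RNA. Kept sites lay near 18 of the 20, against 46.1% of protein-coding genes, so most of the 10 naive genes had sites of both kinds. Of 15 general pluripotency genes, Sall4, Lin28a and L1td1 were near a gained site. So were 3 of 32 P53 targets (Sesn2, a stress-induced inhibitor of growth signalling, Tigar and Ephx1), 3 of 18 Kruppel-like and Sp factors (Klf2, Klf9 and Sp1) and 2 of 10 trophectoderm genes (Krt18 and Tead4). Of 16 immediate early and AP-1 genes, 13 formative and primed genes and 17 fibroblast markers, 0 were; kept sites lay near 15, 4 and 6 of them.

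The 24 gained sites near listed genes were as weak as the rest, with folds of 3.83 to 7.98 in the first treated library, and 14 of them were in no other KLF4 list. The one 1.13 kb upstream of Tfcp2l1, a transcription factor of the naive circuit, was wide (chr1:118625474-118627016) with folds of 7.66 and 8.51, and was in both untreated (6.81 and 7.46) and both treated deletion lists (5.50 and 5.46). Sall4, a zinc finger factor of self-renewal, had 3 gained sites, the strongest at chr2:168755261-168755653 (6.89 and 7.74). The site in Esrrb, a nuclear receptor of the naive circuit, lay at chr12:86477623-86477946 (6.07 and 6.16), that in Nr0b1, a nuclear receptor that binds Esrrb, at chrX:86193238-86193601 (6.12 and 5.42), and that in Lin28a, an RNA-binding protein, at chr4:134009977-134010383 (4.59 and 3.87). No site of Sall4, Esrrb, Nr0b1 or Lin28a was in another KLF4 list. In L1td1, whose site lies 1.34 kb upstream at chr4:98725298-98725895 (5.54 and 4.91), the untreated deletion lists had higher folds, 18.3 and 19.6.

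RNA of genes within 10 kb of a gained site was read in the same knockout at 3 h, the time of the ChIP. Of 2246 such genes 1341 were tested, and 1608 of the 2246 (71.6%) also had a kept site within 10 kb. Of the 1341, 3 passed an adjusted p of 0.05 (limma on log2(FPKM + 1)), against 103 of all 14103 genes tested (0.73%). Higher was 1 of the 1341 (0.0746%), against 0.61% of all genes. Lower were 2 (0.149%), near the 0.121% of all genes. Both of these were at least 2-fold lower (0.149%, against 0.0425%), a share that rests on 2 genes. Hspa1a, a heat shock protein, stood at 1.29 and 1.17 FPKM at 0 h and 3.24 and 3.03 at 3 h, and rose by 0.89 on the log2 scale (SE 0.16, adjusted p = 0.0163 by limma). Smad7, an inhibitor of TGF-beta signalling, stood at 13.96 and 13.3 FPKM and then at 4.70 and 4.90, and fell by 1.33 (SE 0.11, adjusted p = 1.3e-05 by limma). Spry4, an inhibitor of FGF signalling, stood at 22.2 and 23.3 FPKM and then at 8.23 and 8.56, and fell by 1.34 (SE 0.24, adjusted p = 0.0157 by limma). For these 3 genes the 0 h and 3 h libraries did not overlap. All 3 also had a kept site within 10 kb, and of the 212 tested genes with a gained site alone 0 passed. The calls of Hspa1a and Spry4 were lost without any 1 of the 4 libraries (adjusted p 0.0757 to 0.138 for Hspa1a and 0.0716 to 0.142 for Spry4, by limma), while Smad7 kept its call; with a pseudocount of 0.1 FPKM 14 genes passed.

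Expression of Klf4 itself was 15.7 and 18.4 FPKM at 0 h and 15.6 and 17.4 at 3 h. By limma 0 of the 10 naive genes near a gained site passed at 3 h. Of the 10 naive genes with no gained site 1 passed, and it was lower. The median log2 changes were -0.26 near a gained site and -0.19 without one. At an unadjusted p under 0.05 there were 4 near a gained site, Esrrb, Fgf4, Klf2 and Tbx3, all lower. That count was not made for other genes, so it is not a result about gained sites. Esrrb stood at 115 and 113 FPKM and then 85.1 and 89.7 (log2 change -0.38, adjusted p = 0.111 by limma), and Fgf4, a growth factor of ES cells, at 119 and 114 and then 82.0 and 73.0 (-0.58, adjusted p = 0.181 by limma). Embryonic stem cell markers were present in all these libraries (8 of 8 at 1 FPKM or more), and so were fibroblast markers, 17 of 17, with a summed level of 2194 to 2253 FPKM at 0 and 3 h. The labels name ES cells alone. In bulk RNA, fewer cells of a type and less RNA per cell cannot be told apart.

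By 9 h most genes of the knockout had changed, and the genes near gained sites were more often lower than genes at large. An adjusted p of 0.05 was passed by 869 of the 1341 genes, against 64.9% of all genes. Of the 1341, 424 (31.6%) were lower and 445 (33.2%) higher, against 20.9% and 44.0% of all 14103. At least 2-fold lower were 138 (10.3%), against 5.31%, and at least 2-fold higher 184 (13.7%), against 19.6%. The median over all genes moved by 0.28 on the log2 scale and that of genes near gained sites by 0.04. Under quantile scaling, which removes that shift, the calls split into 40.9% lower and 23.3% higher near gained sites and 30.2% lower and 30.1% higher over all genes. The lower share lay with genes that also had a kept site (389 of 1129, 34.5%); of the 212 genes with a gained site alone 16.5% were lower and 42.5% higher, and of the 8145 with a kept site alone 21.5% were lower. These shares are descriptions, and their differences were not tested.

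Most naive genes near gained sites fell at 9 h, and so did most of that list without one. Of the 10 naive genes 6 fell and 1 rose, with a median log2 change of -0.49, and of the 10 naive genes with no gained site 8 fell, with a median of -1.06. Esrrb went from 115 and 113 FPKM to 19.6 and 18.3, a fall of 2.53 on the log2 scale (SE 0.10, adjusted p = 8.35e-11 by limma). Nr0b1 went from 116 and 118.1 FPKM to 27.7 and 30.1, and fell by 1.98 (SE 0.12, adjusted p = 4.4e-09 by limma). Tfcp2l1 went from 25.4 and 27.4 FPKM to 8.52 and 9.18, and fell by 1.48 (SE 0.15, adjusted p = 4.4e-07 by limma). In these genes both 9 h libraries lay under both 0 h libraries. Zfp42 fell by 0.39, Tbx3 by 0.57 and Prdm14, a repressor of differentiation genes, by 1.15, while Klf2 rose by 0.81, from 58.2 and 52.7 FPKM to 91.5 and 104. Sall4, with its 3 sites, went from 76.4 and 82.2 FPKM to 15.3 and 15.2, and fell by 2.30 (SE 0.21, adjusted p = 1.8e-07 by limma). Lin28a went from 122 and 123 FPKM to 15.5 and 16.3, and fell by 2.87 (SE 0.22, adjusted p = 3.4e-08 by limma).

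**Figure D5:**
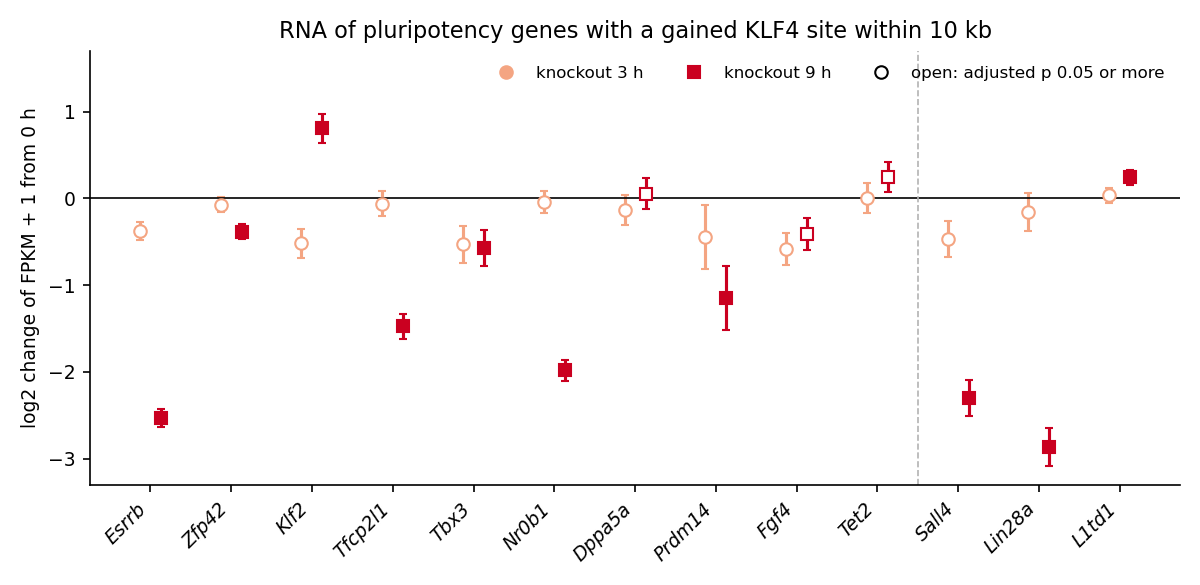
Log2 change of FPKM + 1 in knockout cells at 3 h (circles) and 9 h (squares) against 0 h for the 13 naive (left of the dashed line) and general pluripotency genes with a gained site within 10 kb; bars, SE of limma; filled, adjusted p under 0.05. None is filled at 3 h; at 9 h Lin28a, Esrrb and Sall4 lie lowest, at -2.87, -2.53 and -2.30, and Klf2 highest, at 0.81.

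Other genes near gained sites that fell most at 9 h were Itpk1, an inositol kinase (51.7 and 47.9 to 5.29 and 5.73 FPKM, log2 change -2.96), Ncoa3, a nuclear receptor coactivator (45.6 and 49.0 to 5.88 and 5.57, -2.84), Mras (-2.62), Dusp27 (-2.61), Tcf7l1, a repressor of the Wnt pathway in ES cells (26.1 and 25.2 to 2.92 and 4.53, -2.51), Nrf1 (-2.47), Spry4 (-2.46) and Mybl2, a cell cycle transcription factor (232 and 238 to 42.8 and 42.3, -2.44). Those that rose most were Hspa1a (3.75), Slc34a3 (3.57), Slc25a42 (3.496), Tbxa2r (3.04), Malat1, a nuclear long noncoding RNA (3.02, with 9 h libraries at 67.5 and 38.1 FPKM), Kcnj4 (3.01), Nptxr (3.01), Fxyd6 (2.73), Ppp1r13l, which encodes the P53 inhibitor iASPP (2.69), and Pcyox1l (2.67). Of the P53 targets near a gained site, Ephx1 rose by 1.12, Tigar fell by 0.48 and Sesn2, at 69.6 and 67.8 and then 62.2 and 65.2 FPKM, did not pass. Of all 32 listed P53 targets, 25 were higher and 3 lower, with a median log2 change of 1.45. The 0 h libraries are shared with the comparison at 3 h, so the changes at the 2 times are not independent. Summed fibroblast markers were 2529 and 2720 FPKM at 9 h, with 16 of 17 at 1 FPKM or more.

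Lnc956 knockdown cells under 10 uM etoposide gave another pattern. Of 1286 tested genes near gained sites 900 passed, against 68.6% of all 12733 genes; 450 were higher and 450 lower (35.0% each), against 31.5% and 37.1%. At least 2-fold higher were 87 (6.77%), against 3.81%, and at least 2-fold lower 45, against 5.09%. Of the 10 that rose most, 8 lie on chromosome 6, among them Nfu1, Tmem40, Ogg1, Nup210, Brpf1, Jagn1 and H1fx, with log2 changes of 1.78 to 1.99. Ogg1, a DNA glycosylase, stood at 14.7 and 13.5 FPKM untreated and 56.5 and 56.0 treated, and Nfu1, an iron-sulphur cluster protein, at 98.9 and 103 and then 401 and 408.

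This followed the chromosome. The median log2 change of 607 tested genes on chromosome 6 was 0.55, and 25.0% of them were at least 2-fold higher. On the other chromosomes except Y the medians ran from -0.24 to 0.07 and the shares from 1.52% to 4.39%. Chromosome Y, with only 5 tested genes, had a median of 1.89, and 4 of the 5 were at least 2-fold higher. Along chromosome 6 the median was -0.12 between 45 and 60 Mb and 1.08 between 90 and 105 Mb. On chromosome 6, 39 tested genes near gained sites (34.8%) were at least 2-fold higher; elsewhere 4.09% of 1174 were, against 2.73% of all genes there. In the knockout time course the chromosome 6 median was 0.02 at 3 h and 0.18 at 9 h, within the range of other chromosomes (-0.00 to 0.06, and 0.05 to 0.62). The copy number of chromosome 6 was not tested.

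In the knockdown cells 7 of the 10 naive genes near gained sites were lower and 2 higher (Nr0b1 and Tet2). The 10 naive genes with no gained site were much alike, 6 lower and 3 higher. The median log2 changes were -0.33 near a gained site and -0.31 without one. Nr0b1 rose from 31.8 and 30.4 to 113 and 114 FPKM (log2 change 1.83, adjusted p = 4.0e-08 by limma), the opposite of the knockout at 9 h, and Klf2 fell from 33.7 and 37.1 to 17.6 and 16.9 (log2 change -0.997), also opposite. Esrrb fell by 0.30, Sall4 rose by 0.28 and Lin28a rose by 0.64. Sesn2 rose by 1.23, Tigar by 1.04 and Ephx1 fell by 1.53. Of all 32 listed P53 targets, 18 were higher and 10 lower. Doses, times and kind of loss differ between the sets, and the difference was not tested. Several of the genes that fell most are matrix or secreted proteins, such as Col6a1 (19.1 and 18.4 to 1.76 and 1.49 FPKM, -2.91), Rcn3 (-2.19) and Ptx3 (-2.04). Beside these, all 17 fibroblast markers were lower, with sums of 1803 FPKM in both untreated and 883 FPKM in both treated libraries, and their part in the result was not tested.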

How the data were processed

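The authors deposited 1 peak list per ChIP library and 2 tables of RNA values. Per the submitters' processing notes, the tools were CASAVA, Bowtie2 2.1.0, MACS2 2.2.7.1, TopHat2 2.0.8, Cufflinks 2.1.1 and Cuffdiff 2.1.1, on build mm10; no cutoff or scaling is stated. In the deposited peak lists each peak has a score, a fold enrichment over control, and -log10 p and -log10 q values, all the authors'. The deposited RNA values are FPKM, fragments scaled to transcript length and library size; read depth is unknown, so no counting interval is given. Of the time-course table, 12 columns with no matching label were not used, and 140 symbols repeated in the other table were left out.

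Overlaps of 1 bp were counted in Python 3.11.15 and checked against bedtools 2.31.1. Gene names and starts came from RefSeq (GRCm38.p6); 99.5% of symbols matched a gene, and a gene was near a site when its body lay within 10 kb. RNA was tested with limma 3.58.1 on log2(FPKM + 1) over all groups of a table, for genes with 1 FPKM or more in 2 libraries, with Benjamini-Hochberg adjustment over all tested genes; fold changes are on that scale, which understates those of low genes. Simulated data had the means and spread of each whole table and 200 genes changed by 1 on the log2 scale. For the time course (14103 genes), 2 draws recovered 77% and 83%, with 7 and 12 false calls. These 2 differ by the random draw alone and do not tell 3 h from 9 h. For the knockdown table (12733 genes) 94% were recovered, with 12 false calls. A change of most genes, like that at 9 h, was not simulated. Shares were tested by exact permutation over libraries.

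Named sites are the 10 of highest mean fold, the 10 in most other treated KLF4 lists, up to 10 of highest fold with a P53 peak in all 4 treated P53 lists, those within 10 kb of a listed gene, and the 5 nearest an untreated peak. Named genes are those within 10 kb of these, and in each RNA comparison up to 10 that rose and 10 that fell most among genes near a site, past the threshold, at 1 FPKM or more and without overlap of libraries; not all are printed. The promoters shown, the sites outside the rule and the strongest sites without a reach were chosen after their values were seen. The sites, gene lists and tests were chosen with earlier results of these data known.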

Additional observations from a re-analysis of the deposited data

How the results depend on the processing

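The number of sites depended on the rule. From 1745 it went to 691 with a -log10 q of at least 5 in both treated lists, to 1137 with no untreated peak within 1 kb, to 612 when the 4 untreated rescue lists were also used, and to 2646 with the untreated knockout lists alone; overlap by 50% of the shorter peak (2220) and coordinates from the second treated library (1771) moved it less. Leaving out 1 library gave 1857 to 2920, the highest without the second treated library and, at 2900, without the first untreated knockout library. Leaving out chromosomes 6 and Y, dropping the WT lists and dropping the 69 sites with a wide second peak were chosen after seeing the data.

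The rescue difference (-29.9 points) ranged from -32.9 to -27.1 without 1 library and kept an exact permutation p of 0.0286. The deletion minus full-length difference was 14.1 with the stricter overlap, 20.6 with the stricter q, 19.0 with knockout lists alone and 1.81 with the strongest peaks; without 1 library it was 15.4 to 16.2. The difference from kept sites in KLF4 lists, whose direction the choice of both sets favours, was -72.0 to -64.7 without 1 library. The P53 difference was 1.79 to 2.36 without 1 library (exact permutation p 0.0286 to 0.0571, the latter without either untreated knockdown library) and -0.244 with the strongest peaks. The P53 difference from kept sites was -17.3 with knockout lists alone, -16.6 with the strongest peaks, and -19.5 to -18.5 without 1 library.

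Replicate numbers only name libraries: in the RNA sets the differences between same-numbered libraries correlated at 0.064, -0.038 and -0.038. With the replicate number as a block, the rescue and P53 differences were -29.9 and 2.08 points with the smallest p that 4 pairs allow in an exact sign-flip test, 1 in 8, and 5 genes near sites passed at 3 h. At 3 h the count of 3 genes was also 14 with a pseudocount of 0.1, 9 with gene starts within 50 kb, and 1 to 3 without 1 library (1 without the first 0 h or the second 3 h library). At 9 h it was 742 to 778 without 1 library, against 869, and in the knockdown 810 to 826, against 900. Quantile scaling turned the 9 h changes of Amhr2 to -0.17 and of Tmem63a to -0.0823.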
